A study of Mus musculus with 5 samples.

Results

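Aquaporins are membrane channels that let water cross cell membranes along osmotic gradients. Here they are represented by 4 genes, Aqp1, Aqp3, Aqp4 and Aqp5. Their members were all probe sets that the array annotation assigns to 1 of these genes alone, which gave 9 of the 45037 probe sets that are not controls. The rule itself uses the annotation and no intensity; the genes were proposed with earlier results of these data known. Aqp3 and Aqp4 had 4 and 3 probe sets, and Aqp1 and Aqp5 had 1 each.

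The arrays carry RNA from sorted tracheal epithelial cells of C57BL/6 mice aged 8 to 12 weeks, of both sexes, with each sample drawn from its own pool of 10 to 15 mice. The duct group, with 3 arrays, comes from the upper part of the trachea: pronase, a protease mixture, stripped the surface epithelium, and cells of the remaining tissue, which holds the submucosal glands and their ducts, were sorted by a surface antigen. The basal group, with 2 arrays, comes from the lower part of the trachea: dispase, a protease that detaches epithelium, freed the surface epithelium, and cells were sorted by that antigen together with ITGA6, an integrin chain of basal cells. Cell type, tracheal section, enzyme and sort gate therefore cannot be told apart, and all groups are untreated and of 1 strain.

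In the airway, AQP3 is a basolateral channel of basal cells that also conducts glycerol, AQP4 is a basolateral water channel of the columnar surface cells, AQP5 is the apical water channel of gland acinar cells and of some surface cells, and AQP1 is the channel of capillary endothelium and red blood cells. Water follows salt that ion channels and transporters move, so the aquaporins are usually considered together with CFTR, the calcium-activated chloride channel ANO1 and the sodium channel ENaC.

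Values are the deposited linear intensities in arbitrary units. They can be compared for 1 probe set across arrays, but not between probe sets, because each set of probes binds with its own strength. A sum over markers is therefore weighted toward its brightest probe sets and is no measure of the number of cells. The brightest of 27 control probe sets for Bacillus transcripts, which mouse RNA should not bind, read 39.5 to 61.9 on the duct arrays and 59.7 and 86.5 on the basal arrays and served as a measure of background. Most probe sets exceeded it: 67.2% to 74.6% on the duct arrays and 71.6% and 62.5% on the basal arrays. Counts of markers above the controls, here and below, are to be read beside these shares. Duct replicate 1 stood apart: its median intensity was 92.3, while the remaining arrays lay between 146.5 and 152.8. Markers of squamous epithelium separated the groups, with 6 of 6 genes called higher in duct cells (0 to 5 of them with 1 array left out) and summing to 61121 to 82462 on the duct arrays and to 7470 and 9431 on the basal arrays. Over all genes tested, 0.973% were called, in either direction. Of 4 thyroid markers, 2 were above the controls on all duct arrays and 0 on both basal arrays. Tg, the thyroglobulin gene, read 8779 to 20119 on the duct arrays and 11.1 and 53.2 on the basal arrays, without overlap. The part of either cell type in the aquaporin values was not tested. All 6 basal cell markers on the array were above these controls on all 5 arrays. In none of the 6 did the groups overlap, where 39.1% of all genes tested had no overlap. They went both ways: Krt5, Krt14, Krt15 and Itga6 were higher on all duct arrays, and Trp63 and Ngfr lower. The gap was small for Itga6 and Krt15, with the lowest duct array at 6011 and 20755 and the higher basal array at 5954 and 20242. Krt14, a basal keratin, was the 1 called, at 19816 ± 2251 in duct cells (SD, n = 3) and 1430 ± 146 in basal cells (SD, n = 2; log2 fold change 3.78, limma adjusted p = 0.00595), a call lost without basal replicate 1, basal replicate 2 or duct replicate 3, as was that of Tg. Ngfr, a receptor on basal cells, averaged 542 ± 186 in duct cells and 1806 ± 20.4 in basal cells (log2 fold change -1.76, limma adjusted p = 0.0786). The log2 fold changes of Krt5, Krt15, Itga6 and Trp63 were 0.60, 0.14, 0.25 and -0.33, none called.

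**Figure D1:**
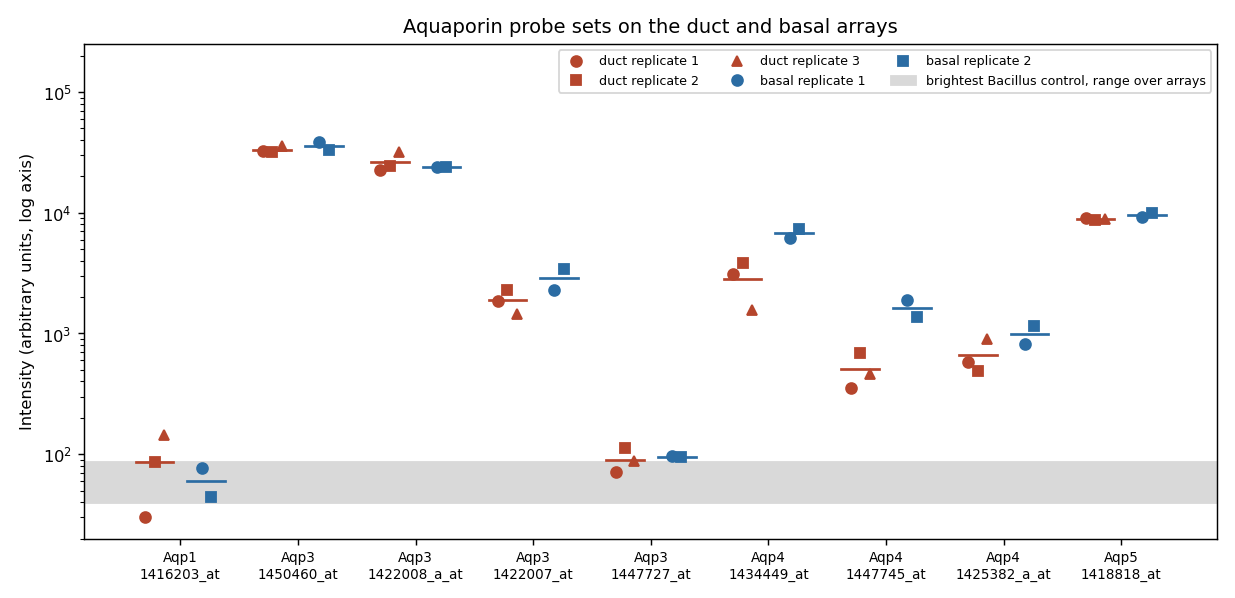
Intensity of each of the 9 aquaporin probe sets (log axis, arbitrary units) on the 3 duct and 2 basal arrays. Points are arrays, bars are group means, and the grey band spans the brightest Bacillus control of the 5 arrays, 39.5 to 86.5. The 3 Aqp4 sets and Aqp3 set 1422007_at have lower means in duct cells, at log2 fold changes of -0.61 to -1.69 and of -0.60, the other Aqp3 sets and Aqp5 lie between -0.11 and 0.12, and Aqp1 lies in and around the band.

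Aqp3 averaged 33314 ± 2211 in duct cells (SD, n = 3) and 35769 ± 3659 in basal cells (SD, n = 2), and Aqp5 8884 ± 148 in duct cells and 9580 ± 632 in basal cells. Aqp4 averaged 2824 ± 1140 in duct cells (SD, n = 3) and 6733 ± 814 in basal cells (SD, n = 2), and Aqp1 was near background in both. Of the 3 aquaporin genes bright enough to be tested, limma called 0 at its adjusted threshold of 0.05, against 0.973% of the 12536 genes tested. At an unadjusted p under 0.05 there was 1, Aqp4, among 18.5% of all genes. With probe sets as the unit, 0 of the 8 tested aquaporin probe sets were called, against 0.233% of 27022, and 2, both of Aqp4, had an unadjusted p under 0.05, against 14.9% of all probe sets.

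Aqp4 is the water channel of the columnar airway epithelium and of brain astrocytes. Its most intense probe set, 1434449_at, which stood for the gene, read 3093, 3804 and 1573 on the duct arrays and 6157 and 7309 on the basal arrays. The groups did not overlap: the highest duct array lay below both basal arrays, and duct replicate 3 was lowest. The log2 fold change was -1.34 (SE 0.42, 95% confidence interval -2.38 to -0.29), with a limma adjusted p of 0.192 and an unadjusted p of 0.0206.

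A further Aqp4 probe set, 1447745_at, read 355, 689 and 465 on the duct arrays and 1894 and 1364 on the basal arrays. These groups did not overlap either, and here duct replicate 1 was the lowest. The log2 fold change was -1.69 (SE 0.37, limma adjusted p = 0.149 over all probe sets). The remaining one, 1425382_a_at, read 584, 492 and 898 on the duct arrays and 824 and 1160 on the basal arrays. On it duct replicate 3 was the highest of the duct arrays and exceeded basal replicate 1, so the groups overlapped, and the log2 fold change was -0.61 (SE 0.36, limma adjusted p = 0.485). The suffix of this probe set marks a design meant to detect several transcripts of the gene. All 3 Aqp4 sets thus had a negative difference, but they did not order the duct arrays in the same way.

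Averaged on the log2 scale over its 3 probe sets, Aqp4 read 869, 1094 and 871 on the duct arrays and 2131 and 2266 on the basal arrays. On this average the duct arrays lay closer together than on the most intense set alone. The log2 fold change was -1.21 (SE 0.24, 95% confidence interval -1.80 to -0.62, limma adjusted p = 0.0752). With an intensity-dependent variance prior and a robust fit, which called 942 genes in place of 122, the most intense set passed the threshold (adjusted p = 0.0453).

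**Figure D2:**
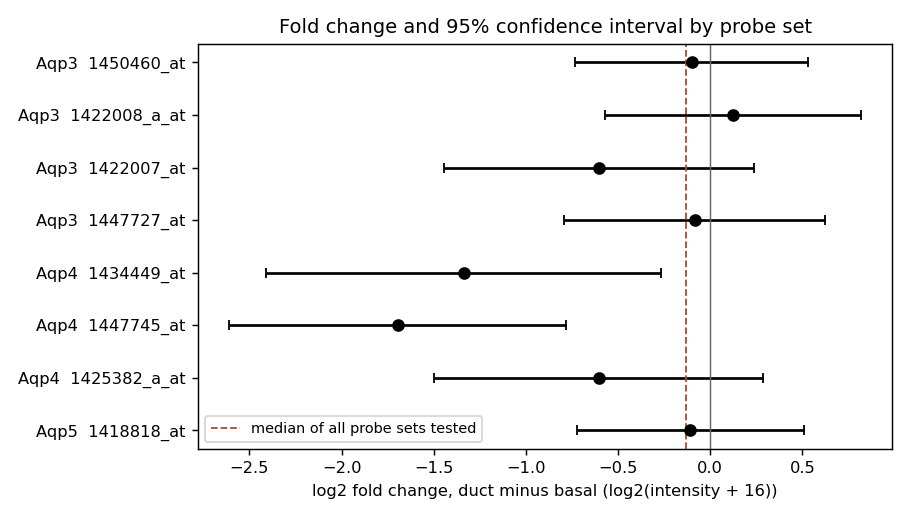
Log2 fold change of each tested aquaporin probe set, duct minus basal, with its 95% confidence interval from limma. The dashed line is the median of all tested probe sets, -0.13. Only the intervals of Aqp4 sets 1434449_at and 1447745_at lie wholly below 0, and neither set passed the test after adjustment.

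Because the samples are bulk RNA, fewer cells of a type and less RNA per cell cannot be told apart for Aqp4 or for any gene below. The markers of ciliated cells, a columnar type, summed to 843, 570 and 1188 over 6 markers on the duct arrays and to 915 and 1651 on the basal arrays. Of these 6, 3 were above the Bacillus controls on all duct arrays and 4 on both basal arrays, and 0 were called. Foxj1, the transcription factor that defines ciliated cells, read 23.0, 18.8 and 198 on the duct arrays and 115 and 188 on the basal arrays. All 4 club cell markers were above the controls on all arrays, 0 were called, and they summed to 72390 to 88514 on the duct arrays and to 80466 and 123574 on the basal arrays. Both sums overlapped between the groups, but each is weighted toward its brightest probe sets. The brightest ciliated marker, Rsph1, read 471, 219 and 440 on the duct arrays and 465 and 852 on the basal arrays. In 2 of the 4 club cell genes all duct arrays lay below both basal arrays, against 22.6% of all genes tested. Scgb3a2, a secretoglobin, averaged 22191 ± 1071 in duct cells (SD, n = 3) and 32485 ± 287 in basal cells (SD, n = 2), at a log2 fold change of -0.55 (limma adjusted p = 0.272). Cyp2f2, a cytochrome P450, was at -0.24 (limma adjusted p = 0.608). Scgb1a1 and Scgb3a1, the remaining secretoglobins, overlapped and differed widely between the basal arrays, at 9934 and 32690 and at 7615 and 28609. The part of these cells in the Aqp4 difference was not tested.

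Aqp3 is the aquaglyceroporin of basal cells in stratified and airway epithelia. Its most intense probe set, 1450460_at, read 32251, 31836 and 35855 on the duct arrays and 38357 and 33182 on the basal arrays. The groups overlapped, and the means differed by less than the spread between the basal arrays. The log2 fold change was -0.10 (SE 0.23, limma adjusted p = 0.847), with a 95% confidence interval from -0.68 to 0.48, or 0.626 to 1.39 times the basal level.

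The other Aqp3 probe sets gave no common direction. 1422008_a_at read 22651, 24578 and 31817 on the duct arrays and 24067 and 23757 on the basal arrays, a log2 fold change of 0.12 (limma adjusted p = 0.865). 1422007_at read 1874, 2311 and 1442 on the duct arrays and 2293 and 3428 on the basal arrays, at -0.60 (limma adjusted p = 0.462). 1447727_at was close to background, at 71.2 to 111.7 on the duct arrays and 93.9 and 96.4 on the basal arrays, at -0.08. On all 4 sets the duct and basal arrays overlapped. The highest intensity on an array was 42638 to 55348, so the most intense Aqp3 set lay near the top of the measured range. The values carry no saturation flags, and whether its probes were saturated was not tested.

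Aqp5 is the apical water channel of serous gland cells, and of alveolar type I cells in the lung. Its only probe set, 1418818_at, read 9054, 8784 and 8813 on the duct arrays and 9133 and 10027 on the basal arrays. The groups did not overlap, yet the highest duct array and the lower basal array were separated by little. The log2 fold change was -0.11 (SE 0.22, limma adjusted p = 0.830), with a 95% confidence interval from -0.66 to 0.45, or 0.633 to 1.36 times the basal level. The median over all genes was -0.12. When array medians were set equal, that median became 0.08, and the differences of Aqp3, Aqp5 and Aqp4 became 0.11, 0.10 and -1.13.

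Of the 3 tested aquaporin genes, 2 had all duct arrays below both basal arrays, Aqp4 and Aqp5, against 22.6% of all genes. Of the 8 tested aquaporin probe sets 3 did, 2 of Aqp4 and that of Aqp5, against 20.7% of the probe sets tested.

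Markers of gland secretory cells, the site for which AQP5 is best known, were above the Bacillus controls on all duct arrays for 8 of 10 genes and on both basal arrays for 6 of 10. They summed to 110311, 83822 and 118218 on the duct arrays and to 61443 and 107783 on the basal arrays, which overlapped. That overlap describes mainly the brightest sets, such as Bpifa1 at 39714, 37171 and 48513 on the duct arrays and 41496 and 42638 on the basal arrays. Of the 8 tested, 0 were called. Of the 8, 6 had positive and 2 negative fold changes. The groups did not overlap for Ltf, the lactoferrin gene of serous cells, and for Sox9, a transcription factor of gland progenitors, both higher in duct cells. Sox9 read 1135, 1432 and 1024 on the duct arrays and 54.5 and 227 on the basal arrays (log2 fold change 3.20, limma adjusted p = 0.0691), and Ltf was at 1.36 (limma adjusted p = 0.272), with duct replicate 2 at 10412 barely above basal replicate 2 at 10406. Bpifb1, a secreted protein gene, was at -1.02 and Bpifa1 at -0.02, both with overlapping groups. Dcpp1, a secreted protein gene of glands, lay below the controls on all 5 arrays.

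Aqp1, the channel of endothelium and red blood cells, read 30.2, 86.6 and 143 on the duct arrays and 76.8 and 44.1 on the basal arrays. It exceeded the brightest Bacillus control on 2 of 3 duct arrays and on 1 of 2 basal arrays, and the groups overlapped. The gene lay among the lowest 40% of probe sets by mean log2 intensity, was not tested, and is given no fold. Endothelial markers were equally dim: of 10 genes, 0 passed that filter, 1 was above the controls on all duct arrays and 0 on both basal arrays. Kdr, Tek, Plvap and Tie1, receptors and surface proteins of endothelium, were below the controls on all 5 arrays. Esam read 7.24, 14.0 and 64.5 on the duct arrays and 178 and 81.1 on the basal arrays, without overlap. Pecam1 reached 129 on basal replicate 1, and it and the other endothelial markers overlapped. Of 5 red blood cell markers measured, 1 passed the filter, and the 5 summed to 152 to 514 on the duct arrays and to 271 and 344 on the basal arrays. Hba-a1 read 6.55, 80.3 and 10.9 on the duct arrays and 85.6 and 104 on the basal arrays. Its groups did not overlap, and both basal values were above the controls. The other red blood cell markers overlapped.

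The ratio of 2 aquaporin probe sets on the same array does not depend on how that array was scaled, although its absolute value has no meaning across probe sets. The log2 ratio of Aqp4 to Aqp3 was -3.38, -3.06 and -4.50 on the duct arrays and -2.64 and -2.18 on the basal arrays. All duct ratios lay below both basal ratios, with a difference of -1.24. The log2 ratio of Aqp4 to Aqp5 was -1.54, -1.20 and -2.47 on the duct arrays and -0.57 and -0.46 on the basal arrays, again without overlap and with a difference of -1.23. Each gave p = 0.2 in a two-sided exact permutation test, the smallest that 3 against 2 arrays allow, and 0.3 adjusted over the 3 ratios. This test could therefore not reach the threshold of 0.05. Both ratios hold the same Aqp4 probe set, and Aqp3 and Aqp5 changed by only -0.10 and -0.11. The ratios thus restate the Aqp4 difference of -1.34 and are not separate results.

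The log2 ratio of Aqp5 to Aqp3 was -1.83, -1.86 and -2.02 on the duct arrays and -2.07 and -1.72 on the basal arrays. The difference of -0.0064 was smaller than the spread within either group (SD 0.10 over duct and 0.24 over basal arrays; exact permutation p = 1).

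**Figure D3:**
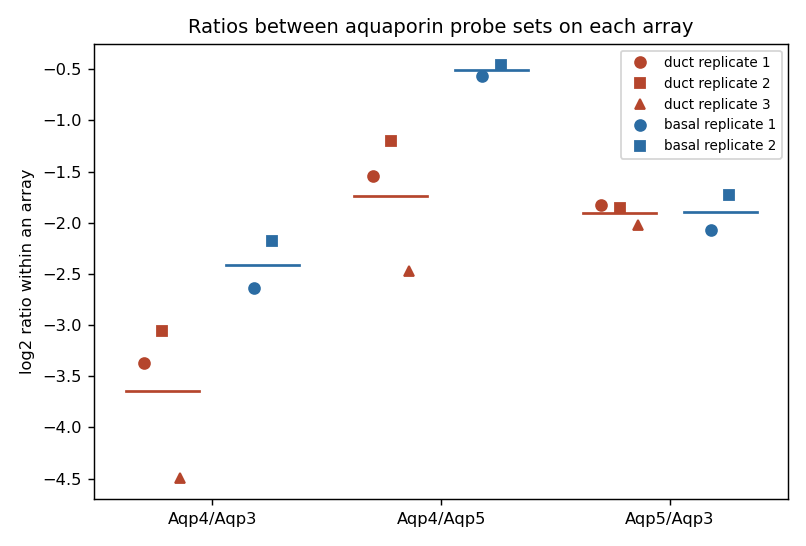
Log2 ratio between the most intense probe sets of 2 aquaporins on each array, for the 3 duct and 2 basal arrays, with bars at the group means. The duct arrays lie below the basal arrays for Aqp4 over Aqp3 and for Aqp4 over Aqp5, while the groups overlap for Aqp5 over Aqp3; the height of a column cannot be compared with that of another column.

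The remaining aquaporins of the array, 8 genes with 16 probe sets, were dim, and most sets were at or near background. Their intensities ran from 1.15 to 260 over all sets and arrays. The brightest Bacillus control was exceeded on all 5 arrays by 3 sets, those of Aqp2 and Aqp8 and the most intense of Aqp6. Aqp8 read 93.6, 244 and 236 on the duct arrays and 219 and 189 on the basal arrays, with overlapping groups. Of the 4 genes that passed the filter, Aqp2, Aqp6, Aqp8 and Aqp11, 0 were called and 0 had an unadjusted p under 0.05, with log2 fold changes from -0.81 for Aqp11 to 0.73 for Aqp6. Aqp6, an intracellular channel known from kidney, read 143, 260 and 215 on the duct arrays and 127 and 103 on the basal arrays on its most intense set, without overlap (limma adjusted p = 0.298). On its other 3 sets the groups overlapped.

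In the RefSeq annotation of GRCm38.p6 the protein-coding gene before Aqp5 is Aqp2 and the one after it is Aqp6. Of these 3 neighbours Aqp5 was far above background, while Aqp2, the vasopressin-regulated channel of the kidney collecting duct, read 116, 113 and 195 on the duct arrays and 120 and 116 on the basal arrays. Its groups overlapped, and all 5 values were within a few times the brightest control of their array.

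Among proteins that hold or regulate aquaporins, 7 genes were tested and 0 were called, with 1 at an unadjusted p under 0.05, against 0.973% and 18.5% of all genes. AQP4 is anchored to the dystrophin complex, and Dtna, Dag1 and Dmd of that complex had negative fold changes that did not pass the test. Dtna, the gene of dystrobrevin alpha, read 81.6, 137 and 133 on the duct arrays and 407 and 621 on the basal arrays, without overlap (log2 fold change -1.99, SE 0.34, limma adjusted p = 0.0681). Dag1, which encodes dystroglycan, was at -0.41 (limma adjusted p = 0.387), and Dmd, the dystrophin gene, at -0.45 (limma adjusted p = 0.599). Ezr, the membrane-to-actin linker ezrin, was at 0.21 and Pld2, a phospholipase that pairs with AQP3 in keratinocytes, at 0.50, neither past the test. Prkaca, the catalytic subunit of protein kinase A, and Akap2, which encodes an anchoring protein of that kinase, were at -0.79 and 0.35, with overlapping groups.

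The ion transport list, of channels, pumps, transporters and receptors that drive airway fluid secretion or absorption, had 38 genes, of which 34 were named on the array and 29 were tested. Of these, 1 rose, 0 fell and 28 did not pass the test, against 0.973% of all genes called. There were 16 positive and 13 negative fold changes, with a median of 0.17 against -0.12 over all genes, and in 15 of the 29 the groups did not overlap, against 39.1% of all genes. The gene that rose was Kcnk5, a background potassium channel of epithelia, at 514, 666 and 722 on the duct arrays and 99.5 and 112 on the basal arrays (log2 fold change 2.40, SE 0.26, limma adjusted p = 0.0277). It was positive in 17 of 17 alternative analyses, from 2.03 to 2.61, and called in 9 of them. Its fold change stayed at 2.40 where only the filter, the unit or the variance fit changed, or cross-hybridising sets were left out. Those settings could not change its sign. Nor could another pseudocount, array weights, the replicate block or leaving out an array, because all duct arrays lay above both basal arrays. Quantile normalization, equal array medians and averaged probe sets, which could, gave 2.55, 2.61 and 2.14. The call was lost with any of the 5 arrays left out, at limma adjusted p-values of 0.0529 to 0.208, and also with no filter on low values (limma adjusted p = 0.0763) and with probe sets as the unit (limma adjusted p = 0.0611).

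Kcnn4, a calcium-activated potassium channel, was at 3.07 (limma adjusted p = 0.0833), Car12, a membrane carbonic anhydrase, at 2.42 (limma adjusted p = 0.101) and Stk39, a kinase that activates chloride loading, at 1.27 (limma adjusted p = 0.143). In each of these 3 genes all duct arrays lay above both basal arrays. Of the 15 ion transport genes without overlap, 8 were higher and 7 lower in duct cells. Ano1, Scnn1a and Atp1b1 were among the 7, and Slc9a3r1 and Atp1b3, another sodium pump subunit, among the 8. Over all 12536 genes, 4904 had no overlap, and 2836 of these, or 22.6% of all genes, were lower in duct cells. Of the 29 tested, 6 had an unadjusted limma p under 0.05, against 18.5% of all genes. All 6 were higher in duct cells: Kcnk5, Kcnn4, Car12, Stk39, Slc9a3r1 and Atp1b3. Slc9a3r1 was at 0.91 (limma adjusted p = 0.183) and Atp1b3 at 0.80 (limma adjusted p = 0.194).

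The secretory channel genes did not pass the test. Cftr, the cyclic AMP-regulated chloride channel, read 135, 511 and 473 on the duct arrays and 66.7 and 269 on the basal arrays (1.14, SE 0.76, limma adjusted p = 0.474). Ano1 was at -0.63 (limma adjusted p = 0.333) and Slc12a2, the basolateral chloride loader, at 0.50 (limma adjusted p = 0.371). The subunits of the absorptive sodium channel, Scnn1a and Scnn1b, were at -0.47 and -0.22, and Scnn1g did not pass the filter. Scnn1g read 64.8, 128 and 68.1 on the duct arrays and 8.49 and 14.0 on the basal arrays, above the Bacillus controls on 3 of 3 duct arrays and 0 of 2 basal arrays, and it is given no fold. The members with the highest mean intensity, Atp1b1, a sodium pump subunit, Sgk1, a kinase that activates ENaC, and Gnas, a G protein subunit, were at -0.29, 0.18 and 0.17, none past the test.

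**Figure D4:**
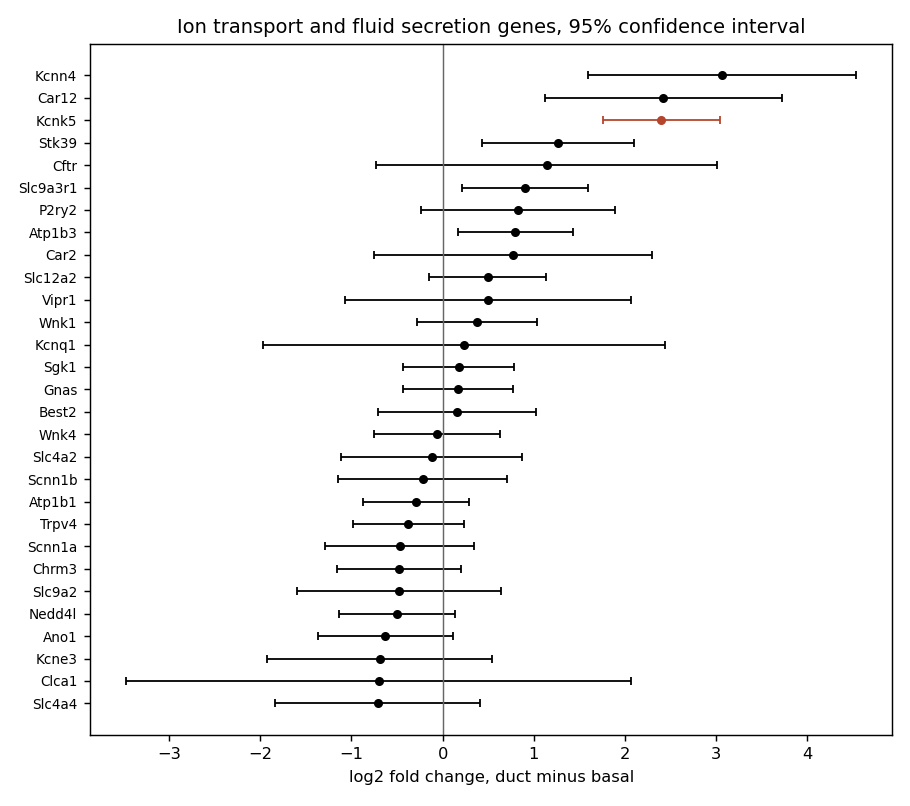
Log2 fold change, duct minus basal, with 95% confidence interval for the 29 tested genes of ion transport and fluid secretion. Kcnk5, in red, alone passed the test; intervals of several other genes lie to the right of 0 without passing after adjustment.

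For each tested aquaporin, the nearest genes were found by the root mean square difference of their log2 values over the 5 arrays, each gene centred on its own mean. Nearest to Aqp4 were Slc46a3, Dennd2d and Traf3ip1, at differences of 0.090, 0.092 and 0.093, where Aqp4 itself varied by 0.78 around its mean. All 3 had their lowest value on duct replicate 3, as the most intense Aqp4 set did. This follows from the choice, which sought genes close to that set on the same arrays. Traf3ip1 read 356, 458 and 202 on the duct arrays and 819 and 1024 on the basal arrays. The other Aqp4 sets were lowest elsewhere, 1447745_at on duct replicate 1 and 1425382_a_at on duct replicate 2. Nearest to Aqp3 were Jun, Ndufa2 and Dctn4, at 0.022 to 0.041, and nearest to Aqp5 were Ap2a2, Ywhab and Supt7l, at 0.023 to 0.028. Aqp3 and Aqp5 varied little, by 0.10 and 0.069, so their nearest genes are others that varied little.

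The Aqp4 difference was negative in 17 of 17 alternative analyses, from -1.60 to -0.96, and passed the threshold in 1 of them. Changing the filter or the unit, the intensity trend and robust fit, and leaving out cross-hybridising probe sets left it at -1.34. These settings do not alter the values of this probe set, so they could not change the sign. Nor could another pseudocount, array weights, the replicate block or leaving out an array, because all duct arrays lay below both basal arrays. Quantile normalization, equal array medians and averaged probe sets, which could, gave -1.47, -1.13 and -1.21. The replicate block gave the same -0.96 as leaving out duct replicate 3. The Aqp4 difference was -1.45 without duct replicate 1, the array with the low median, -1.60 without duct replicate 2 and -0.96 without duct replicate 3. Without basal replicates 1 and 2 it was -1.46 and -1.21.

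**Figure D5:**
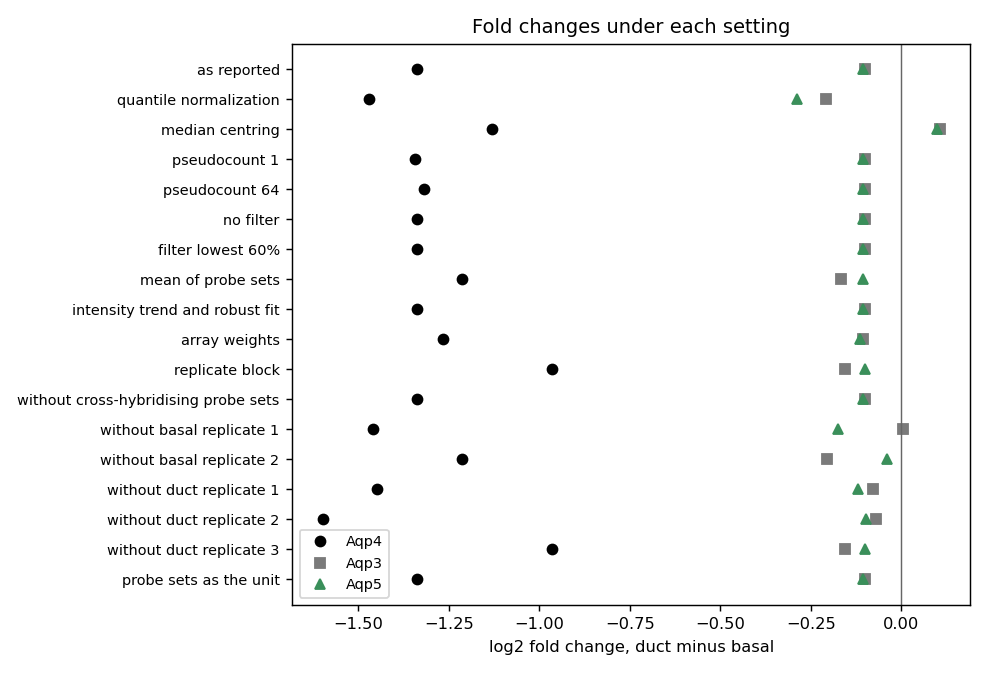
Log2 fold change of Aqp4, Aqp3 and Aqp5, duct minus basal, as reported and under each alternative setting. Aqp4 lies between -1.60 and -0.96 throughout, and Aqp3 and Aqp5 lie between -0.29 and 0.11.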

How the data were processed

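RNA was hybridised to the Affymetrix Mouse Genome 430 2.0 array, per the labels. The authors deposited 1 linear intensity per probe set and array. The values show that they scaled each array: their means, trimmed by 2% at either end, are equal at 500.0. How probes were summarised is not given in the sources used here. There were 0 columns of other samples.

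Probe sets were named from the platform annotation; all 4 aquaporin symbols matched RefSeq by Entrez identifier. No gene was taken from 932 probe sets with several symbols, 9160 with none listed, or 64 controls. For each of 18193 genes the probe set with the highest mean log2(intensity + 16) was used, and those in the lowest 40% of probe sets were left out, which left 12536 genes. Duct minus basal was tested on log2(intensity + 16), which understates changes of dim genes, by limma 3.58.1 (lmFit, eBayes; R 4.3.3), two-sided, without covariates, with Benjamini-Hochberg adjustment over all genes and a threshold of 0.05. Probe sets as the unit were fitted likewise. The fit was tested on simulated data. Figures used matplotlib 3.10.9.

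The members and gene lists were chosen with earlier results of these data known. Named are the 4 aquaporins, the other aquaporins, members of the ion transport list past the threshold or with the highest mean, partner genes, and the 3 nearest profiles of each tested aquaporin, leaving out clone, RIKEN and predicted-gene names. Other ion transport and marker genes named were chosen after their values were seen. Each sample is a separate pool of mice, and replicate numbers were not used to pair them. The number of arrays limits the precision, and p-values measure the spread between these pools. The other sort antigen is not reported here.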

Additional observations from a re-analysis of the deposited data

How the results depend on the processing

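The number of genes called, 122 as reported, was 338 with array medians set equal, 303 with a pseudocount of 64, 36 with no filter, 408 with the lowest 60% left out, 191 with probe sets averaged per gene, 942 with an intensity trend and robust fit and 63 with probe sets as the unit. With the replicate block it was 0 (1608 genes had an unadjusted p under 0.05), and Aqp4 was then at -0.96 (limma adjusted p = 0.380) and Kcnk5 at 2.30 (limma adjusted p = 0.295); that fit has 1 residual degree of freedom, and the deviations of same-numbered arrays correlated at -0.083 and -0.037. It ranged from 0 to 39 with each array left out in turn: 2 and 0 without basal replicates 1 and 2, and 39, 23 and 1 without duct replicates 1, 2 and 3. A lone basal array takes its spread from the duct arrays. With the intensity trend and robust fit the SE of Aqp4 was 0.33, in place of 0.42. Aqp4 passed the threshold there at the same fold change of -1.34, and the parts of its SE and of the 942 calls were not tested. Over the 17 alternatives its limma adjusted p ran from 0.0453 to 0.448. With median centring Aqp3 and Aqp5 turned to 0.11 and 0.099. With arrays left out Aqp3 ran from -0.21 to 0.0036, the highest without basal replicate 1. Neither was called in any of the 17 alternatives. Background limits what can be said of Aqp1 and of most of the remaining aquaporins.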
